A study of Mus musculus with 12 samples.

Results

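Acetylation of histone H3 at lysine 27 (H3K27Ac) was compared between PD-L1 high cells and all cells of an IFN-gamma treated pancreatic cancer line. The comparison sets 1 library against 1 library, which are 2 of the 12 libraries of the series, and it covers all 25507 gene windows of the deposited table. The cells were KPC1199, a line of murine pancreatic ductal adenocarcinoma (PDAC) grown in culture, of the C57BL/6 strain, and the marks were read by CUT&Tag, in which an antibody-guided transposase cuts the DNA beside a mark. Both libraries came from cells given 10 ng/ml IFN-gamma, 1 from cells selected as PD-L1 high and 1 from cells taken without regard to PD-L1, which are called unselected in the text and all cells in the plots. The remaining H3K27Ac library, from untreated cells taken without regard to PD-L1, is given beside them. The unselected treated cells may hold PD-L1 high cells too, and how PD-L1 high cells were picked is not given in the sources used here. All states come from 1 cell line, so there is no replicate, no test and no p-value, and every difference below is one between libraries.

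H3K27Ac is laid down by the acetyltransferases p300 and CBP and lies at active promoters and enhancers. PD-L1, encoded by Cd274, is a checkpoint ligand that restrains T cells through PD-1, and IFN-gamma raises it through JAK kinases, STAT factors and the transcription factor IRF1. Polycomb complexes act the other way on chromatin: PRC2 places H3K27me3 on the same lysine, and PRC1 ubiquitinates histone H2A, the mark called H2A119Ub in the labels. H3K4me3 marks active promoters.

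The short result was that H3K27Ac was nearly alike in the 2 libraries. Where they differed, the windows low in PD-L1 high cells carried more Polycomb marks, histone genes and many ribosomal protein genes leaned higher, and Cd274 lay slightly above the median of all windows, with an interval that includes 0. Of single genes, Casp12, a member of the inflammatory caspase family, had H3K27Ac and H3K4me3 ratios both above 2-fold in PD-L1 high cells. It was picked by its H3K27Ac ratio, and passed the filter on low levels only with the PD-L1 high library. Counting intervals of both ratios reached below 2-fold, to log2 values of 0.68 and 0.85. The promoters of 5 genes are printed as examples of both ends of the comparison: Casp12 and Pyurf from the highest windows, Trnp1 and Btbd17 from the lowest, and Cd274 itself. Each run holds 250 bases before and 50 bases from the RefSeq gene start on (GRCm38.p6, the mm10 assembly), is written 5′ to 3′ in the direction of the gene, and has the motifs found in it in capitals.
Casp12: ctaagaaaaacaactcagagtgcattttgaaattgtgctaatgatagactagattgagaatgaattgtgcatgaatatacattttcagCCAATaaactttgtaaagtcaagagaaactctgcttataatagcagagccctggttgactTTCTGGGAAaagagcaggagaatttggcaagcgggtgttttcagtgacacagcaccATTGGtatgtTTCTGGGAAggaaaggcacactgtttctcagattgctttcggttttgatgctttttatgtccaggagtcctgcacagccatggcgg
Pyurf: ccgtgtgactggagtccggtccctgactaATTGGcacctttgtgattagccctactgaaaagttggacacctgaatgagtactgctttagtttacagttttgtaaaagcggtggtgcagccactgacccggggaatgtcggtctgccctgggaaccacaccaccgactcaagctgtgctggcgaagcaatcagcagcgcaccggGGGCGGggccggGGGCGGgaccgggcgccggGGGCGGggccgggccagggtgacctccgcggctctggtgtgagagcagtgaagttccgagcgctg
Cd274: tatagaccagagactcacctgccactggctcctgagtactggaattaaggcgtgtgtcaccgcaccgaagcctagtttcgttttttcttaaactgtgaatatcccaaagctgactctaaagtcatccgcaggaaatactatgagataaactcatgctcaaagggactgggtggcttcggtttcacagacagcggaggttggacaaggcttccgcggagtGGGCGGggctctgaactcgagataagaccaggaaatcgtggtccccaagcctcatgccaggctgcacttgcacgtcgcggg
Trnp1: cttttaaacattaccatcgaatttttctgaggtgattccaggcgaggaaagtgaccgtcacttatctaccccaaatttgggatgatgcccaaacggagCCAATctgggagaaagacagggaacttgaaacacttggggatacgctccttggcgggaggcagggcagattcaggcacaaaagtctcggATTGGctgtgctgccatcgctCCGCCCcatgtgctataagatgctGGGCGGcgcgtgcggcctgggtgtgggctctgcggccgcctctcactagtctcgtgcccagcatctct
Btbd17: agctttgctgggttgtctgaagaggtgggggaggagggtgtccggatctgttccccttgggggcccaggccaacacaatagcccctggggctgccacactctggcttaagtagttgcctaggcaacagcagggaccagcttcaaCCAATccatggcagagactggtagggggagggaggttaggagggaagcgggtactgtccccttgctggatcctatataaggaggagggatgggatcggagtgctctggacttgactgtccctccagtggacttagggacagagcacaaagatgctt
The Casp12 run is chr9:5345226-5345525 on the plus strand, Pyurf is chr6:57692029-57692328 on the minus strand, and Cd274 is chr19:29367188-29367487 on the plus strand. Trnp1 is chr4:133498501-133498800 and Btbd17 is chr11:114795843-114796142, both on the minus strand. Motifs were searched on both strands: the STAT site GAS as TTCNNNGAA, the AP-1 site as TGANTCA, the E-box as CACGTG, the cyclic AMP element as TGACGTCA, the TATA box as TATAAA, the GC box as GGGCGG, the CCAAT box as its own letters, the ETS site as CCGGAAG, and the interferon element core and the NRF1 site. Matches of GAS and the interferon element core may overlap each other. In Casp12 the capitals are GAS matches at bases 149 and 215, both reading TTCTGGGAA, and CCAAT letters at bases 89 and 205, of which the latter lies on the reverse strand. Cd274 held a GC box at base 220, Pyurf 3 GC boxes and a reversed CCAAT box, Trnp1 2 GC boxes and 2 CCAAT boxes, and Btbd17 a CCAAT at base 145. Of 27025 RefSeq promoters of this length, 8.47% held GAS letters, 35.9% a GC box, 37.9% CCAAT, 14.2% the TATA letters and 9.12% the ETS letters. AP-1 letters lay in 7.93%, the E-box in 7.24%, the interferon element core in 3.49%, the cyclic AMP element in 1.88% and NRF1 in 0.977%. These matches describe letters and say nothing of binding.

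Values are given as normalised tags per 6000 bp window, the reading of the deposited signal described under processing. The windows summed to 2.39 M tags in unselected treated cells, 2.30 M in PD-L1 high cells and 2.04 M in untreated cells. Windows whose mean over the 3 H3K27Ac libraries was at or above the median window, 46.3 tags, were kept, which left 12757, and their median level was 139 tags in unselected treated, 137 in PD-L1 high and 117 in untreated cells. Ratios are log2 of PD-L1 high over unselected treated cells, with 5.06 tags added to both and centred on the median of the kept windows, which lay at -0.05 before centring. Intervals are at 95%, were computed without the added tags, and cover counting error only. As a check of the label, the keratin genes Krt8, Krt18 and Krt19 carried 512 to 799 tags in unselected treated cells. The epithelial adhesion genes Epcam and Cdh1, however, were low, at 19.2 and 32.4 tags. Of 26 leukocyte markers 6 were kept, and the median of all 26 was 23.3 tags in untreated, 17.7 in unselected treated and 15.7 in PD-L1 high cells, with none of the 26 at 0 in the 2 treated libraries. The leukocyte gene Ptprc had 11.7 tags in unselected treated cells and 9.11 in PD-L1 high cells, with 0 and 0.99 tags of H3K4me3. Of 25 fibroblast and endothelial markers 9 were kept, with a summed level of 958 tags in unselected treated and 942 in PD-L1 high cells. The median of all 25 was 20.3 tags in untreated, 32.9 in unselected treated and 16.2 in PD-L1 high cells. Of 31 acinar and endocrine pancreas genes 8 were kept, and the median of all 31 was 19.3, 12.2 and 14.2 tags in the same order. Of other single markers, Cd3e, Lyz2, Cpa1 and Ins2 had 10.1 to 13.2 tags in unselected treated cells. The fibroblast marker Col1a1 had 95.7 tags there and 73.9 in PD-L1 high cells, with 110 and 145 tags of H3K4me3. The endothelial marker Pecam1 had 38.5 and 33.4 tags. Both lay above Epcam and Cdh1 in unselected treated cells, so the check of the label was mixed.

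Levels in the 2 libraries had a Spearman correlation of 0.951 over the kept windows, and the middle 50.0% of their ratios lay between -0.18 and 0.18. A 2-fold difference was reached upward in PD-L1 high cells by 10 windows (0.0784%) and downward by 25 (0.196%). These counts depend on the processing: without centring they were 6 and 36, with a pseudocount of 20 tags 2 and 0, and without the filter on low values 520 and 419. At 1.5-fold, 239 (1.87%) lay higher and 303 (2.38%) lower. The interval lay above 0 for 1208 windows (9.47%) and below 0 for 1359 (10.7%), which makes 20.1% off 0. The spread of the ratios narrowed as levels rose, from an SD over windows of 0.40 in the lowest decile to 0.18 in the highest, where counting alone would give 0.26 and 0.10. All 2-fold calls lay in the lowest 4 deciles of kept windows by level, up to a mean of 111 tags. Counting error is also largest there, and its part in the 2-fold calls was not tested. In bulk libraries, fewer cells with the mark and less of the mark per cell cannot be told apart.

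**Figure D1:**
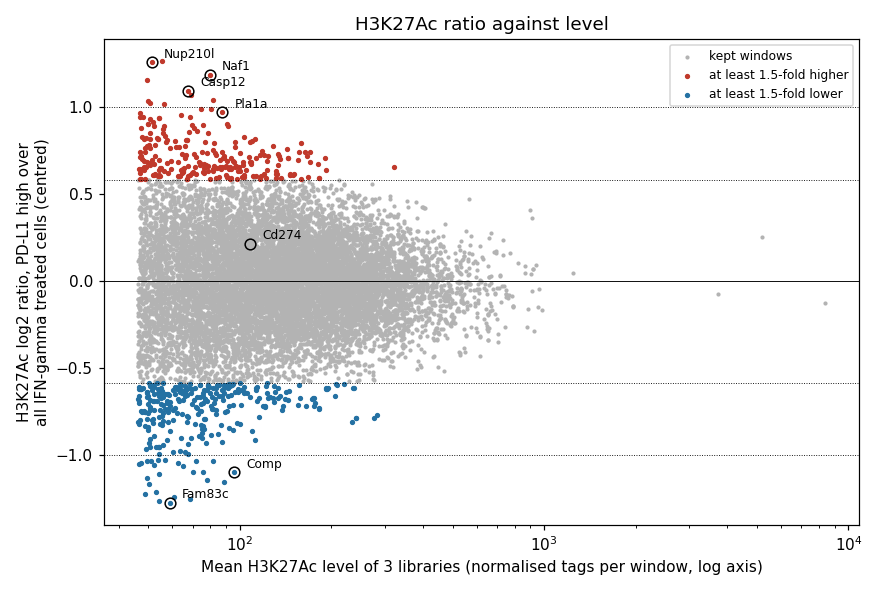
Ratio of H3K27Ac in PD-L1 high over unselected treated cells (log2, centred) against the mean level of the window over 3 H3K27Ac libraries (normalised tags, log axis), 1 point per kept window (n = 12757). The points spread most at low levels, and the 10 windows at or above 1 and the 25 at or below -1 all have a mean under 111.2 tags.

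The 12 highest named windows ran from a log2 ratio of 0.95 to 1.26, and being chosen by their ratio they are a description. Nup210l, which encodes a nuclear pore protein relative (chromosome 3, 90101007 to 90212151), led them with 38.0 tags in untreated, 32.9 in unselected treated and 83.0 in PD-L1 high cells, a ratio of 1.26 (0.80 to 2.04). Naf1, which helps assemble H/ACA ribonucleoproteins, followed with 75.6, 49.1 and 114 tags and a ratio of 1.19 (0.78 to 1.80). Fjx1, a kinase-like secreted protein gene related to fly four-jointed, had 48.7, 29.9 and 70.4 tags and a ratio of 1.16. In these 3 genes the library of unselected treated cells was the lowest of the 3.

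Casp12 (chromosome 9, 5345442 to 5373034) had another order, with 32.5 tags in untreated, 53.7 in unselected treated and 116 in PD-L1 high cells. Its ratio was 1.09 (0.68 to 1.66). It was the only one of the 12 whose level in unselected treated cells was not below that in untreated cells. H3K4me3 at Casp12 went from 55.8 tags in untreated to 89.4 in unselected treated and 218 in PD-L1 high cells, a ratio of 1.19 (0.85 to 1.58), in libraries separate from those of H3K27Ac. Its promoter, printed above, holds the 2 GAS matches.

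Virma, a subunit of the m6A RNA methyltransferase complex, had 62.9, 45.6 and 98.2 tags in the same order of states and a ratio of 1.07. Pyurf had 94.4, 48.6 and 102 tags and a ratio of 1.05 (0.61 to 1.65), so its PD-L1 high level was near that of untreated cells. The other 6 were Pggt1b, a subunit of a protein prenyltransferase (1.03), Taf1b, a factor of RNA polymerase I (1.02), Pla1a, a phosphatidylserine phospholipase (0.97), Osgepl1, a mitochondrial tRNA modifying enzyme (0.97), Tbca, a tubulin folding cofactor (0.96), and Vps50, of endosomal recycling (0.95). Of the 12, 11 had fewer tags in unselected treated than in untreated cells. These windows were chosen on the same libraries, so this order is a description. In 5 of them both other libraries lay below the level filter of 46.3 tags, so only the PD-L1 high library carried them past. In Fjx1 and Casp12 the mean of the other libraries was below the filter too, so they also passed only with the PD-L1 high library. The ratio against unselected treated cells and the step from untreated to unselected treated cells share a library, so a low value in that library moves both.

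Among the 12 lowest named windows were several genes best known from other tissues. Fam83c (chromosome 2, 155829183 to 155834852) had 73.1 tags in untreated, 76.0 in unselected treated and 27.3 in PD-L1 high cells, a ratio of -1.28 (-2.12 to -0.78). Trnp1, a nuclear protein gene known from the developing mouse cortex (chromosome 4, 133491097 to 133499645), had 62.9, 72.9 and 26.3 tags and a ratio of -1.27 (-2.13 to -0.76). Btbd17, a gene for a BTB domain protein, had 110, 70.9 and 25.8 tags and a ratio of -1.25 (-2.09 to -0.71). Galr2, a galanin receptor, had 67.0, 84.1 and 31.4 tags and a ratio of -1.24. In these 4 genes the PD-L1 high library was the lowest of the 3.

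Slc16a8, a monocarboxylate transporter of retinal pigment epithelium, had a ratio of -1.22, and Tmem119, a marker of microglia, one of -1.21. AA467197, whose window lies within 3000 bp of Mir147 and cannot be told from it, had 33.5, 84.1 and 33.4 tags and a ratio of -1.17, so its treated but unselected library alone was high. The cytochrome P450 gene Cyp2w1 had 120, 103 and 42.0 tags (-1.16), and Grin1, the shared subunit of NMDA receptors, had 116, 84.1 and 33.9 tags (-1.15). The serine protease gene Prss33 (-1.13), Slc37a3, a sugar phosphate exchanger family gene (-1.11), and Comp, a cartilage matrix protein (-1.10), completed the 12. For Trnp1, Slc16a8, AA467197, Prss33 and Slc37a3 the mean of the untreated and PD-L1 high libraries was below the level filter. These genes passed it only with the unselected treated library, which was the highest of the 3 in all of them but Slc16a8. Slc16a8 had 68.0 tags in untreated and 57.2 in unselected treated cells.

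**Figure D2:**
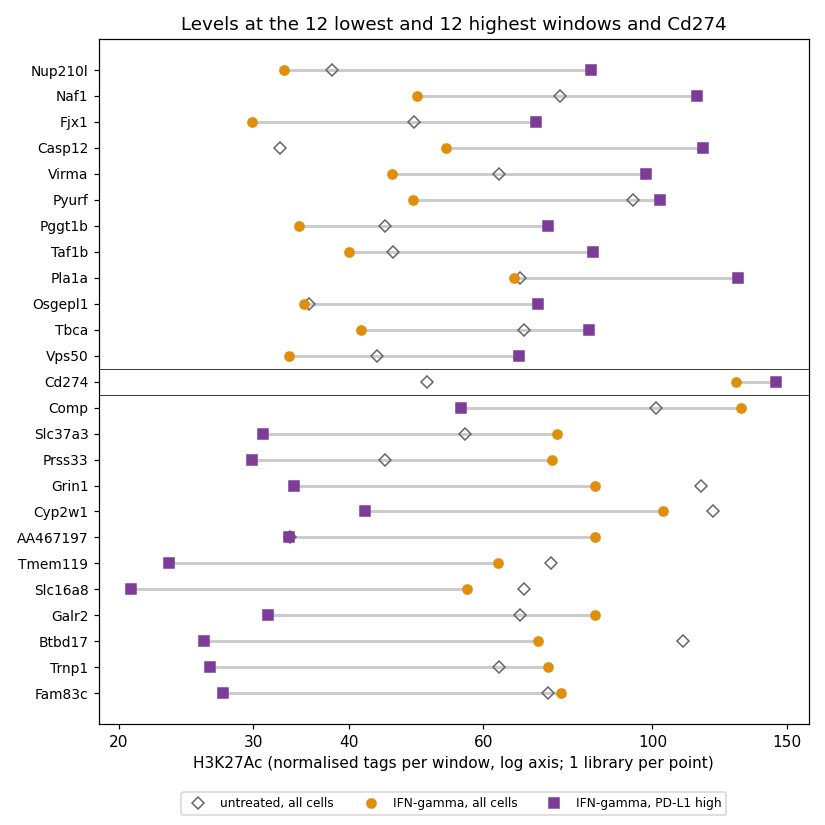
H3K27Ac level (normalised tags per window, log axis) of the 12 highest windows, the 12 lowest windows and Cd274 in untreated, unselected treated and PD-L1 high cells, 1 library each, so no error bar across replicates is shown. The PD-L1 high level is 66.8 to 129.6 tags in the 12 highest and 20.8 to 56.2 in the 12 lowest.

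The 2 ends differed in their Polycomb marks in untreated cells, which come from libraries the ratio did not use. The windows themselves were chosen by that ratio. Several at each end passed the level filter only with the library that was the higher side of the ratio, as given above. Whether this choice bears on their Polycomb marks was not tested. H3K27me3 in untreated cells ran from 25.4 to 1060 tags in the 12 lowest windows, all above the median of kept windows of 13.2 tags, with a median of 154. Trnp1 had 917 tags of H3K27me3, Galr2 859, Grin1 1052 and Comp 1060. In the 12 highest windows the median was 8.13 tags and 3 lay above the median of kept windows, Fjx1 with 332 tags being the strongest. H2A119Ub in untreated cells had a median of 146 tags in the 12 lowest and 20.8 in the 12 highest, beside 51.5 over all kept windows. H3K4me3 was below the median of kept windows, 468 tags, in all 24.

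The same held over the kept windows at large. When they were put in deciles by H2A119Ub of untreated cells, the median H3K27Ac ratio declined at each step, from 0.15 in the lowest decile to -0.17 in the highest. Without the filter on low values the lowest decile was at 0.0165 and the highest at -0.20, and without centring they were at 0.0997 and -0.22. In the lowest decile 82 of 1276 windows lay past 1.5-fold upward and 9 downward, and in the highest decile 5 were higher and 99 lower, against 1.87% and 2.38% of all kept windows. The share of windows with a ratio above 0 went from 69.4% to 24.9%. The H3K4me3 ratio had the same order where that mark was kept, with medians of 0.06 in the lowest H2A119Ub decile and -0.08 in the highest. The order was thus not particular to acetylation. The Spearman correlation between H2A119Ub of untreated cells and the H3K27Ac ratio was -0.31 over 12757 windows, and -0.29 and -0.28 with the H2A119Ub libraries of unselected treated and PD-L1 high cells. Windows are not independent, neighbours can share reads, and all points share the same H3K27Ac libraries, so these are descriptions.

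**Figure D3:**
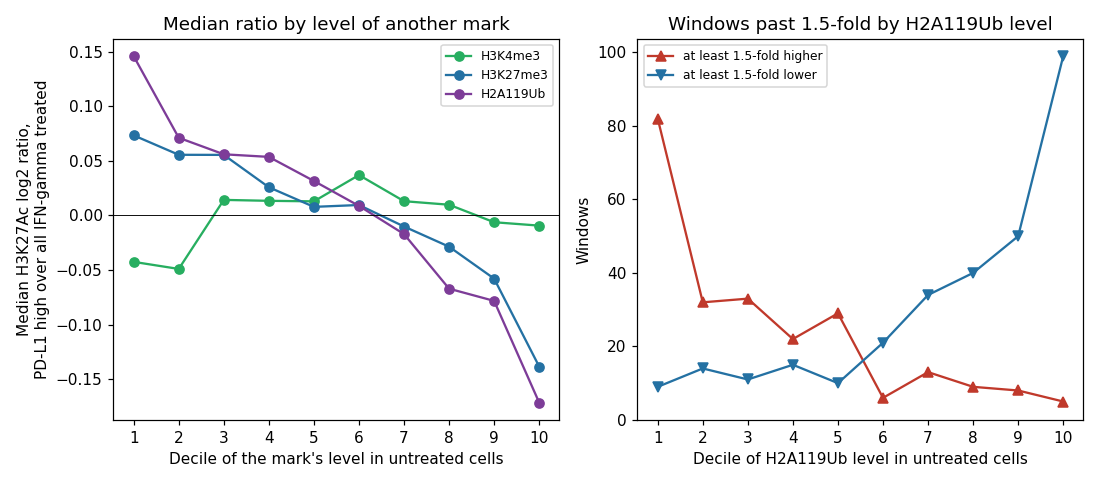
Median log2 ratio of H3K27Ac in PD-L1 high over unselected treated cells in deciles of kept windows (12757 windows), ordered by the level of each other mark in untreated cells. The right panel counts the windows past 1.5-fold by H2A119Ub decile. The median goes from 0.15 to -0.17 along H2A119Ub, the higher windows from 82 to 5 and the lower from 9 to 99.

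By H3K27me3 of untreated cells the median went from 0.07 in the lowest decile to -0.14 in the highest, and the Spearman correlation was -0.21. By H3K4me3 there was no such order, with a Spearman correlation of 0.03, but the windows past 1.5-fold lay mostly at low H3K4me3. The lowest decile by H3K4me3 held 50 higher and 105 lower windows, and the highest decile 0 higher and 2 lower. With windows split at the median of both Polycomb marks, those low in both had a median ratio of 0.07 (n = 4641) and those high in H3K27me3 alone 0.06 (n = 1635). Windows high in H2A119Ub alone were at -0.04 (n = 1390), and those high in both at -0.07, with 36 higher and 210 lower of 5091. The difference along H2A119Ub thus appeared at either level of H3K27me3, and that along H3K27me3 was small at either level of H2A119Ub.

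H3K27Ac itself was higher where H2A119Ub was higher, at 91.1 tags in unselected treated cells in the lowest decile and 165 in the highest. Within the lowest tertile of windows by H3K27Ac, the median ratio was 0.16 in the lowest H2A119Ub decile and -0.28 in the highest. Within the middle tertile it was 0.15 and -0.19, and within the highest tertile 0.10 and -0.12. The direction was the same in each. H2A119Ub tags can also follow how open or how GC-rich a window is, and the part of either was not tested. A check against promoter base composition was void, since 76.4% of kept windows have a promoter in the reference table, under the 80% set for such a check.

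H3K4me3 libraries of the same cell states gave a reading of the same contrast in separate libraries. There, 1 window (0.00784%) was at least 2-fold higher and 10 (0.0784%) lower, and at 1.5-fold 39 (0.306%) were higher and 110 (0.862%) lower of 12754. In H3K27me3 the 1.5-fold shares were 11.8% higher and 25.2% lower, and in H2A119Ub 5.30% and 6.04%, so acetylation passed at fewer windows than either Polycomb mark. The Polycomb marks had fewer tags per kept window and so more counting error, and its part in that order was not tested. Of the windows at least 1.5-fold higher in H3K27Ac, 198 were also kept in H3K4me3, and 129 of them (65.2%) had an H3K4me3 ratio above 0. Of those at least 1.5-fold lower, 215 were kept and 80 (37.2%) had one above 0, beside 48.8% of the 11718 windows kept in both marks. Across these 11718 windows the ratios of the 2 marks had a Spearman correlation of 0.17 and a Pearson's r of 0.19.

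**Figure D4:**
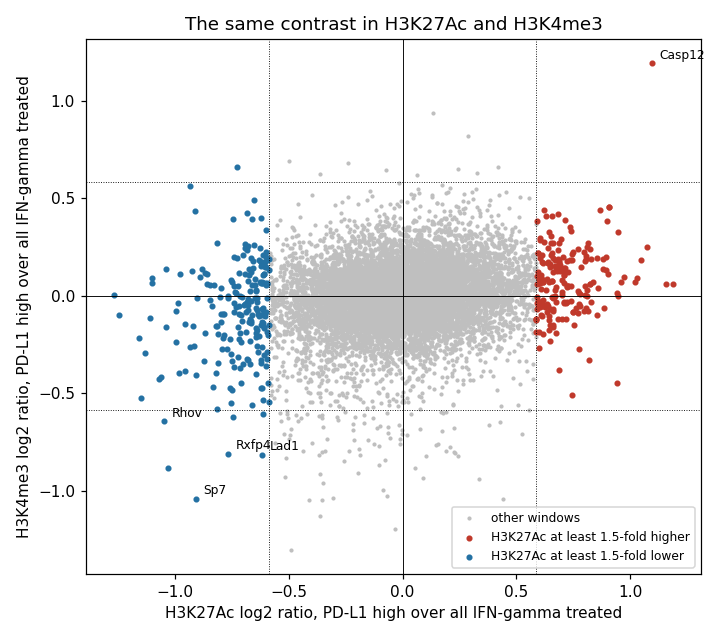
Log2 ratio of PD-L1 high over unselected treated cells in H3K4me3 (vertical) against H3K27Ac (horizontal), 1 point per window kept in both marks (n = 11718). Casp12 lies alone at the upper right, with 1.09 in H3K27Ac and 1.19 in H3K4me3.

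Past 1.5-fold in both marks and in the same direction, Casp12 was the 1 window higher and 7 were lower: Lad1, Mir7066, Mybpc3, Rhov, Rxfp4, Sp7 and Ttc25. That is 1 of the 198 windows higher in H3K27Ac and 7 of the 215 lower. In the opposite direction, 1 of the 215 was higher in H3K4me3, and 0 of the 198 were lower. Over all 11718 windows kept in both marks, 12 were at least 1.5-fold higher in H3K4me3 and 97 lower. Sp7, the osteoblast transcription factor osterix, had 99.4, 84.1 and 41.0 tags of H3K27Ac in untreated, unselected treated and PD-L1 high cells and a ratio of -0.91 (-1.59 to -0.45). Its H3K4me3 was 128, 107 and 53.9 tags, a ratio of -1.04, and its H3K27me3 in untreated cells was 1119 tags. Rhov, an atypical small GTPase gene, had 62.9, 86.6 and 38.0 tags of H3K27Ac (-1.05) and 122, 105 and 70.2 of H3K4me3 (-0.64). Lad1, a basement membrane protein gene, had ratios of -0.62 and -0.82, with 1012 tags of H3K27me3 in untreated cells.

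Cd274, the gene of PD-L1 (chromosome 19, 29362107 to 29388095), had 50.7 tags of H3K27Ac in untreated cells, 129 in unselected treated and 145 in PD-L1 high cells. Its ratio was 0.22, with an interval of -0.13 to 0.58 that includes 0, so a difference of H3K27Ac at Cd274 was not detectable at this depth. H3K4me3 at Cd274 was 229, 650 and 786 tags, a ratio of 0.20 (0.05 to 0.35). The larger step was between untreated and unselected treated cells in both marks. Pdcd1lg2, the gene of PD-L2, was below the level filter at 5.06 and 10.1 tags.

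The kept signalling genes of the IFN-gamma response had ratios short of 1.5-fold, as had most kept windows. Of 20 genes of the IFN-gamma receptor, JAK-STAT and IRF list, 18 were kept and 0 passed 1.5-fold in either direction. Over all kept windows 1.87% were higher and 2.38% lower. The median ratio of the 18 was 0.01, a value whose sign changed between processing settings. In 7 the interval lay above 0 and in 1 below, beside 9.47% and 10.7% of all kept windows. Usp18, an inhibitor of type I interferon signalling, had 46.6 tags in unselected treated and 68.9 in PD-L1 high cells (0.56, interval 0.05 to 1.18), and Nmi, a STAT interactor, had 67.9 and 96.7 (0.53, 0.10 to 1.04). Irf2 was at 0.47, Stat2 at 0.46, and the kinase gene Jak2 at 0.36 (0.11 to 0.63). Irf1 was level, at 326 and 325 tags (0.04).

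All 14 kept GBP and IRG genes, the interferon-induced GTPases of cell-autonomous immunity, had intervals that included 0. Their ratios ran from -0.23 for Gbp6 to 0.45 for Gbp11 around a median of 0.09. Gbp2 had 33.5 tags in untreated, 130 in unselected treated and 123 in PD-L1 high cells. In MHC class I and antigen processing, 20 of 22 genes were kept with a median of 0.11. At 1.5-fold 1 was higher and 0 lower, beside 1.87% and 2.38% of all kept windows. That 1 was H2-M3, a nonclassical class I gene presenting formylated peptides, with 85.1 and 127 tags (0.59, 0.21 to 1.04). The light chain gene B2m had 307 and 322 tags (0.11), the peptide transporter gene Tap1 195 and 212 (0.16), and Pdia3, an endoplasmic reticulum chaperone, 388 and 294 (-0.35). In MHC class II presentation 7 genes were kept, with a median of 0.08 and none past 1.5-fold.

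Among 14 kept checkpoint genes the median was 0.12, 2 were at least 1.5-fold higher and 0 lower. Vsir, the gene of the checkpoint protein VISTA, had 49.2, 39.5 and 71.4 tags in untreated, unselected treated and PD-L1 high cells (0.82, 0.33 to 1.51). Nectin3, an adhesion molecule of the nectin family, had 130, 129 and 193 tags (0.62, 0.30 to 0.97). Cd47, the signal that restrains phagocytosis, was at 0.30 (0.09 to 0.52), and Fgl1, a ligand of LAG-3, at -0.42 (-0.82 to -0.04). Of 23 kept antiviral genes 1 was higher and 1 lower at 1.5-fold, beside 1.87% and 2.38% of all kept windows. Xaf1, a proapoptotic interferon-induced gene, had 62.8 and 104 tags (0.73, 0.31 to 1.26), and Ddx58, which encodes the RNA sensor RIG-I, 77.0 and 46.6 (-0.62, -1.24 to -0.13).

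**Figure D5:**
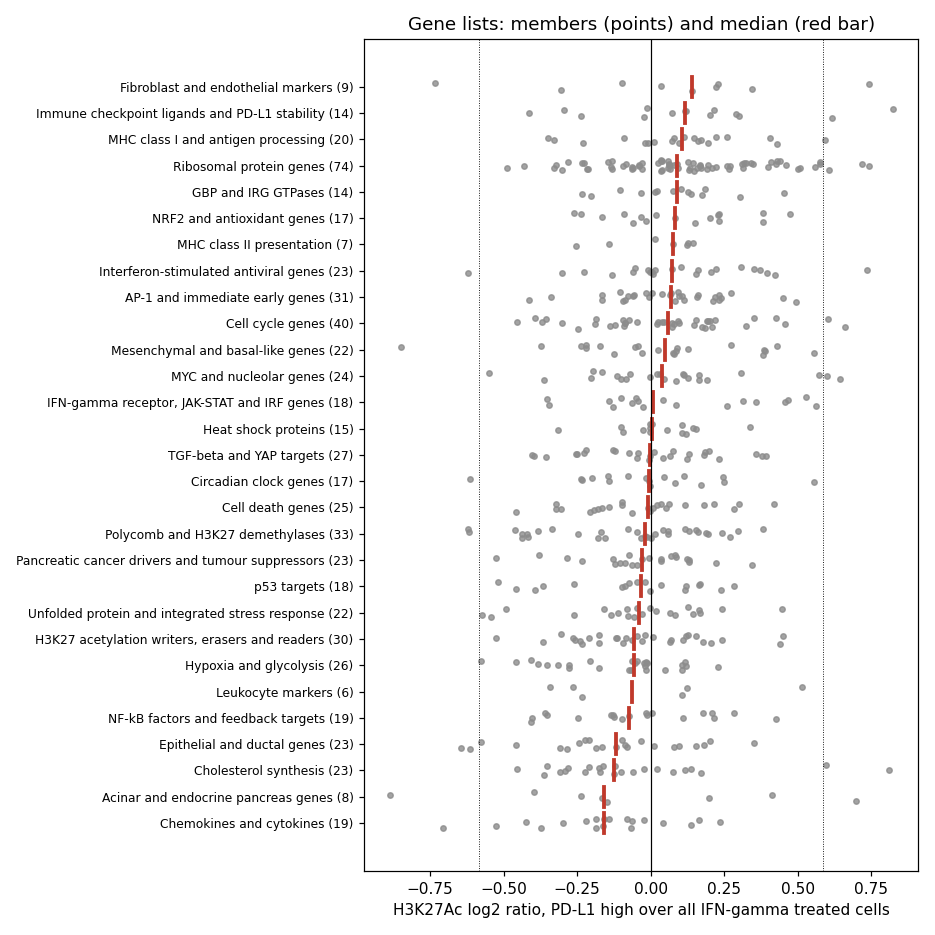
Log2 ratio of H3K27Ac in PD-L1 high over unselected treated cells for the kept members of the gene lists, 1 point per gene, with the list medians marked. The medians lie between -0.16 and 0.14, while single genes reach -0.89 and 0.82.

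Some other groups leaned to one side by small amounts. Of 19 kept chemokine and cytokine genes, 4 had a ratio above 0 and the median was -0.16; 4 intervals lay below 0 and 0 above. Over all kept windows 50.0% of ratios lay above 0, and 10.7% of intervals lay below and 9.47% above. Cxcl3, a neutrophil chemokine, had 87.1 tags in unselected treated and 49.6 in PD-L1 high cells (-0.71, -1.30 to -0.24), and Csf3, the gene of G-CSF, 139 and 91.6 (-0.53, -0.94 to -0.15). Cxcl1 was at -0.42 and Csf1 at -0.37, while Cxcl10, a T cell chemokine induced by IFN-gamma, was level at 128 and 122 tags (-0.02). H3K4me3 at the 11 of these genes kept in that mark had a median of -0.13. In the NF-kB list, whose factors drive several of these cytokines, 19 genes were kept with a median of -0.07. None passed 1.5-fold, beside 1.87% higher and 2.38% lower over all kept windows.

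Of 26 kept hypoxia and glycolysis genes 6 had a ratio above 0, 7 intervals lay below 0 and 0 above, and the median was -0.06, beside 50.0% of ratios above 0 and 10.7% of intervals below over all kept windows. The aldolase gene Aldoc (-0.58), Gpi1 (-0.46), the lactate exporter gene Slc16a3 (-0.41), Pgk1 (-0.38) and the glucose transporter gene Slc2a1 (-0.28) were among the 7, and Ldha (-0.05) and Gapdh (-0.01) were level. Of 23 kept genes of cholesterol synthesis 7 had a ratio above 0 and the median was -0.13. Sc5d, which encodes a sterol desaturase, had 55.7 and 98.2 tags (0.81, 0.37 to 1.37), while Dhcr7, a late enzyme of the pathway, was at -0.35 and Srebf2, its main transcription factor, at -0.31.

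Epithelial and ductal genes leaned lower, with a median of -0.12, 7 of 23 above 0 and 2 at least 1.5-fold lower. Over all kept windows 50.0% lay above 0 and 2.38% were at least 1.5-fold lower. Tjp3, a tight junction protein gene, had 302 and 189 tags (-0.61, -0.90 to -0.36), Ovol1, an epithelial transcription factor, 66.8 and 39.5 (-0.64), and Krt19, the ductal keratin, 711 and 564 (-0.29, -0.45 to -0.13). Sox9, a ductal transcription factor, was at 0.35 (0.10 to 0.62). Mesenchymal and basal-like genes had a median of 0.05 with 12 of 22 above 0. Snai1, which represses Cdh1, was highest at 0.55 (86.1 and 125 tags), although its H3K4me3 ratio was -0.58.

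Genes that build and read chromatin showed scattered differences. Of 33 kept Polycomb and H3K27 demethylase genes, 2 were at least 1.5-fold lower and 0 higher, 9 intervals lay below 0 and 1 above, and the median was -0.02, with a sign that changed between settings. Over all kept windows 2.38% were lower and 1.87% higher, and 10.7% of intervals lay below 0 and 9.47% above. The lower ones were Kdm2b, which brings a variant PRC1 to CpG islands (77.0 and 46.6 tags, -0.62), and Mtf2, a PRC2 accessory subunit (118 and 72.9 tags, -0.62). Asxl1, Rbbp4, Ezh1, Cbx7, Pcgf6 and Cbx6 were also among those below, from -0.46 to -0.38, and Ezh2, the catalytic subunit of PRC2, was the 1 above (107 and 137 tags, 0.38, 0.02 to 0.78). Among 30 kept writers, erasers and readers of H3K27 acetylation the median was -0.06. The acetyltransferase genes were at 0.06 for Ep300 (302 and 306 tags) and -0.37 for Crebbp (182 and 135 tags), and the deacetylase gene Hdac1 at -0.52 (97.2 and 63.8 tags).

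Ribosomal protein genes leaned higher, with 51 of 74 above 0, a median of 0.09 and 3 at least 1.5-fold higher against 0 lower. In 16 the interval lay above 0 and in 5 below. The same shares over all kept windows were 50.0% above 0, 1.87% higher and 2.38% lower, and 9.47% and 10.7% of intervals. Rps18 had 169, 130 and 213 tags in untreated, unselected treated and PD-L1 high cells (0.74, 0.44 to 1.09), Rpl26 107 and 174 in the treated libraries (0.72) and Rps15a 97.2 and 146 (0.61), while Rps3 was at -0.49 and Rplp0 at -0.43. Their H3K4me3 median was -0.03, on the other side of 0. Of 40 kept cell cycle genes 2 were higher, the mitotic genes Ccnb2 (0.66) and Cdc20 (0.60), and of 24 MYC and nucleolar genes 2, Nolc1 (0.64) and Nop58 (0.60), with medians of 0.06 and 0.04, the latter changing sign between settings. The AP-1, heat shock, unfolded protein, NRF2, p53, TGF-beta and YAP and PDAC driver lists had 0 genes past 1.5-fold and medians between -0.04 and 0.08. Of 17 clock genes 1 was lower, of 25 cell death genes 0 passed in either direction, and both medians were -0.01. Of 8 kept acinar and endocrine genes the acinar transcription factor Bhlha15 was lower (-0.89) and the protease gene Ctrl higher (0.70). Among the 9 kept fibroblast and endothelial markers 1 was higher and 1 lower.

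Histone genes, picked after the ratios were known, leaned higher together. Of 66 genes named H1f, H2ac, H2bc, H3c or H4c, 59 were kept, 54 of these had a ratio above 0, and their median was 0.39, beside 50.0% above 0 over all kept windows. Of the 59, 8 were at least 1.5-fold higher and 0 lower, and 31 intervals lay above 0 and 0 below. Over all kept windows 1.87% were higher and 2.38% lower, and 9.47% of intervals lay above 0 and 10.7% below. H3c14, which encodes histone H3, had 153, 106 and 172 tags in untreated, unselected treated and PD-L1 high cells (0.71, 0.38 to 1.11), and H2bc8 190, 138 and 216 (0.67, 0.38 to 1.01). The median level of the 59 was 153, 127 and 165 tags, so the unselected treated library was the lowest of the 3 and the PD-L1 high library lay near the untreated one. Their H3K4me3 median was 0.16 over 59 genes. These genes sit in clusters, 47 on chromosome 13 and 10 on chromosome 3, have near-identical copies, and 49 of the 59 have a start within 3000 bp of another gene, so many windows hold the same reads. The 10 with no other start within 3000 bp had a median of 0.20, with 8 above 0. Windows of 6000 bp can still overlap beyond that distance, so these 10 are not shown to be separate. The median H2A119Ub of the 59 in untreated cells was 28.8 tags, on the low side of the 51.5 tags of all kept windows.

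By position, chromosome medians stayed between -0.07 on chromosome 15, with 3 windows at least 1.5-fold higher and 25 lower of 577, and 0.06 on chromosomes 13 and 19. Chromosome 13 had 17 higher and 3 lower of 438. Over all kept windows 1.87% were higher and 2.38% lower. In 10496 overlapping runs of 25 neighbouring kept windows, the middle 90% of run medians lay between -0.16 and 0.13. The highest, found by scanning, were Commd9 to Lin7c on chromosome 2 (101886262 to 109900937, 0.30), which holds Fjx1, and H2-T24 to 1700071M16Rik on chromosome 17 (36003471 to 43612202, 0.30), which holds H2-M3 and other nonclassical class I genes. The stretch Stard3nl to H2bc7 on chromosome 13 (19357676 to 23574207) had a median of 0.26, and 22 of its 25 windows were above 0. The lowest were Keap1 to Rgl3 on chromosome 9 (21229730 to 21989468, -0.40), and Alyref to Hexdc on chromosome 11 (120594504 to 121222657, -0.37), which holds Fasn and Slc16a3. The low runs were short and gene-dense, and had more H2A119Ub in untreated cells, with medians of 69.5 and 205 tags against 33.4 and 49.9 in the 2 highest.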

How the data were processed

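H3K27Ac was read by CUT&Tag in 3 cell states of 1 line, with 1 library each, beside 3 libraries of each of 3 other marks. The deposited table gives a signal per gene window, normalised by the authors. Per the submitters' processing notes, the build was mm10 and MACS2 2.2.7.1, HOMER and Bowtie2 2.4.2 were used, without stated roles. Of the window, the treatment of duplicates and the scaling, nothing is given in the sources used here. Of the H3K27Ac values multiplied by 6000, 100% fell within 10% of steps of 0.5 tags, with 1 tag worth 1.01 in each library, so the signal was read as normalised tags per 6000 bp, an inference from the values. Depth of the libraries is known only as far as these steps show it. All value columns were used.

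A pseudocount of 5.06 tags (the 10th percentile of values above 0) was added, windows with a mean of at least 46.3 tags over 3 H3K27Ac libraries were kept, and log2 ratios were centred on their median. Ratios understate differences at low windows. Calls are 1.5-fold and 2-fold and involve no test, since each side has 1 library. Intervals at 95% are Clopper-Pearson intervals of the recovered tags. They compare 2 libraries, not conditions, and without molecular identifiers 2 reads may come from 1 molecule. The method was tested on simulated data.

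Named genes are the 12 highest and 12 lowest kept windows whose interval lies on the same side of 0, Cd274, and the 2 most extreme kept members of each of 29 lists. Predicted genes, RIKEN clones, small RNAs and symbols starting LOC, AI, BC, AU, AW or n-R were skipped. Some genes the rule names are not reported here. Other genes named were chosen after their values were seen. Members and lists were chosen with earlier results of these data known. Symbols or synonyms matched RefSeq GRCm38.p6 for 25203 windows (98.8%), and coordinates and promoters come from there. Of 25507 windows 57 repeat a name. Windows of genes whose starts lie within 3000 bp share reads. A check of promoter base composition or motifs over sets was void, since 76.4% of kept windows have a promoter. Alternatives were other scalings, pseudocounts, filters and 1 window per run of neighbouring starts. Python 3.11.15, numpy 2.4.6, pandas 2.3.3, scipy 1.17.1 and matplotlib 3.10.9 were used.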

Additional observations from a re-analysis of the deposited data

How the results depend on the processing

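Counts of calls depended on the filter, the centring and the pseudocount, and the 2-fold split turned to more higher than lower windows without a filter and with 20 tags. Against 10 windows at least 2-fold higher and 25 lower, no centring gave 6 and 36, quantile normalization 6 and 10, a pseudocount of 1 tag 21 and 40 and one of 20 tags 2 and 0. Without a filter on low values there were 520 and 419, and with one at the 75th percentile 0 and 0. Against 239 at least 1.5-fold higher and 303 lower, no filter gave 2044 and 2086, the 75th percentile filter 32 and 35, and 20 tags 123 and 137, and without centring the split was 184 and 405. The median in the highest H2A119Ub decile, -0.17, was -0.13 with the 75th percentile filter, -0.22 without centring and -0.20 without a filter, and that in the lowest decile, 0.15, was 0.0946, 0.0997 and 0.0165, alternatives added after seeing the data. The cause of these moves was not tested, except that filters change which windows are counted. Named genes other than Cd274 kept their direction in 504 of 504 recomputed ratios. They were picked for the size of their ratios in these same libraries, so a change of direction was hardly possible. The count is therefore no support for them. Of 231 recomputed list medians 228 moved by less than the spread and 3 by more. The sign of the median changed between settings for the JAK-STAT, heat shock, TGF-beta and YAP, MYC, Polycomb and leukocyte lists. Cd274 stayed between 0.17 and 0.22 and is not kept under the 75th percentile filter. No replicate could be left out. No paired analysis was possible because each mark and state has 1 library. Depth limits single windows: at the lowest decile of kept windows counting alone gives an SD of 0.26 on the log2 scale.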

Other observations

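Proteasome genes leaned higher in PD-L1 high cells: of 37 kept genes named Psma, Psmb, Psmc or Psmd, 33 had a ratio above 0, 2 were at least 1.5-fold higher and 0 lower, and the median was 0.16, beside 50.0% above 0, 1.87% higher and 2.38% lower over all kept windows. Psma5, a core particle subunit, was highest at 0.71 (0.44 to 1.01), followed by Psmc4, an ATPase of the cap. The interferon-induced subunit genes were at 0.07 for Psmb8 and 0.22 for Psmb9. H3K4me3 at the 37 had a median of 0.00. Keratin genes went the other way, with 5 of 22 above 0 and a median of -0.17, as did potassium channel genes, with 5 of 19 above 0 and a median of -0.21. Both families had more H2A119Ub in untreated cells, with medians of 116 and 124 tags. Collagen genes had a median of -0.18 over 15 and Zfp genes, a family of DNA-binding proteins, 0.03 over 275, with 8 higher and 5 lower. Of 1126 olfactory receptor (Olfr) windows 4 were kept. Transcribed pseudogenes had a median of 0.15 over 77 windows, beside 0.02 over 863 long noncoding RNAs and -0.03 over 500 microRNA windows. These families were chosen after values were seen.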
